A study of Mus musculus with 12 samples.

Results

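Mouse chromosome 19 was followed gene by gene in 4 epiblast stem cell (EpiSC) lines. A gene stood for by several probe sets entered through its brightest one that carries a single symbol, and was placed by its Entrez identifier in a RefSeq table of the GRCm38.p6 assembly. Members were chosen by this position and by their signal: the mean log2 over 12 arrays had to reach 5.97, a signal of 62.6, which is the median for probe sets other than controls. Of 609 genes of the chromosome on the array, 223 lay under this filter and 1 above it was left out by name, so that 385 remained, out of 11105 genes tested in the whole series. The chromosome itself was selected on the difference between the haploid lines seen on these same arrays, so that difference is described without a test. EpiSCs are pluripotent and correspond to the epiblast after implantation. Diploid EpiSC-1 and diploid EpiSC-2 carried the strain label B6D2F1, and haploid EpiSC-1 and haploid EpiSC-2 the label 129Sv. All cells grew in N2B27 with bFGF and Activin A. Each label had 3 biological replicates, and the numbers behind EpiSC were taken as separate lines, which the labels do not spell out. Ploidy and strain divide the lines identically and cannot be told apart. The labels name neither a passage nor a clone, and do not say that the cells were still haploid when harvested.

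Haploid mammalian cells carry 1 set of chromosomes and can be kept as pluripotent lines. Chromosome 19 is the smallest mouse autosome, and like other mouse autosomes it has its centromere at one end, so that gene order runs from the centromere outwards. Its genes belong to no common pathway. They include the kinase gene Jak2, the desaturases Scd1 and Scd2, the patterning genes Fgf8, Dkk1 and Hhex, and clusters of related genes such as the Ms4a, Lip and Ifit families.

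The results turn on where a gene lies, so 4 promoters are shown. Ak3, Jak2 and Uhrf2 lie near one another in a stretch that was high in haploid EpiSC-1, and Klf9 lies closer to the centromere and was lower in both haploid lines. Each sequence is the 250 bases before the start given by RefSeq (GRCm38.p6), on the strand of the gene, and that start lay 119 bases from the outermost base of the gene for Ak3 and 83 for Uhrf2. Capitals mark GGGCGG or its reverse complement CCGCCC, and CCAAT or its reverse complement ATTGG.
Klf9 (chr19:23140976-23141225, plus strand): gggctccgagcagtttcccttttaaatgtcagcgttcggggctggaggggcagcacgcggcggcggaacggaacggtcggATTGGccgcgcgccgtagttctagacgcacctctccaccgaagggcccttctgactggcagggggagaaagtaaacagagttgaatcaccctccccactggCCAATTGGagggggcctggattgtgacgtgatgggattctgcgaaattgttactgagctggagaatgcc
Ak3 (chr19:29047962-29048211, minus strand): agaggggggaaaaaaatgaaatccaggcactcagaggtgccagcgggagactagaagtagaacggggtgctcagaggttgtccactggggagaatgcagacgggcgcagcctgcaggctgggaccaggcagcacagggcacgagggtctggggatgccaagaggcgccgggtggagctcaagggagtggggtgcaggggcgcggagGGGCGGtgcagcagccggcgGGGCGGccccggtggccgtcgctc
Jak2 (chr19:29251553-29251802, plus strand): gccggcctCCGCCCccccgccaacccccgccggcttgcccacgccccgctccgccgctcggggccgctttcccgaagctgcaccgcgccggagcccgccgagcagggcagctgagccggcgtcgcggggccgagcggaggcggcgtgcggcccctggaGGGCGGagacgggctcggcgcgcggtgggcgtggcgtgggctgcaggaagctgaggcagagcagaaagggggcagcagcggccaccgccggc
Uhrf2 (chr19:30030263-30030512, plus strand): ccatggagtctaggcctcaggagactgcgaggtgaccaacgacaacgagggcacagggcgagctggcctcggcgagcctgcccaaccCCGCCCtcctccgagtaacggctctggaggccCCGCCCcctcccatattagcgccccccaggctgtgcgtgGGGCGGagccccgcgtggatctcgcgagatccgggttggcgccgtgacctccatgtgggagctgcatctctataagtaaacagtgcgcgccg
Ak3 and Jak2 each held 2 matches to GGGCGG on either strand and Uhrf2 held 3, while Klf9 held 0 of these and 3 matches to CCAAT, 2 of which overlap. TATAAA or TTTATA was in none of the 4. A promoter was found in the table for 336 of the 385 genes. GGGCGG was in 59.8% of the promoters of the first 200 genes along the chromosome, in 60.5% of those of the last 185, and in 33% of all 27025 promoters. CCAAT was in 41.4%, 43.7% and 34.5%, and TATAAA in 8.88%, 7.19% and 13%. For each motif the shares of the first and last genes of the chromosome lay closer to each other than to the share of all promoters. The genes of the chromosome had passed the signal filter and the set of all promoters was not filtered, so this gap does not describe chromosome 19. Among tested genes the median promoter G+C content was 61.7% in the first 200, 60.7% in the last 185 and 61.3% on the other chromosomes.

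Array medians were 63.6 to 76.5, and arrays of the same line correlated at 0.989 to 0.992. The marker check of the labels gave 10 of 10 EpiSC identity genes at or above the filter in every line. Their summed signal was 87542 to 91219 in diploid EpiSC-1, 81645 to 83647 in diploid EpiSC-2, 45441 to 46091 in haploid EpiSC-1 and 58613 to 60623 in haploid EpiSC-2. In haploid EpiSC-1, Fgf5 had a mean signal of 86.9 and Otx2 one of 74.0, both just above the filter, against 2133 or more for each gene in the other lines. Other identity genes went the opposite way: mean signals of Sox2 were 1005 and 1175 for the diploid lines but 4537 and 3383 for the haploid ones, and those of Lefty1 were 6531 and 4823 but 11602 and 12324. Of 10 fibroblast feeder markers, 4, 6, 10 and 10 were at or above the filter in these lines in the same order. The summed feeder signal was 5989.8 to 6675, 19935 to 21891, 30111 to 32139 and 34072 to 34438. The RNA came from bulk cultures, in which fewer cells of a type and less RNA per cell cannot be told apart. Tests between lines measure the spread between the 3 cultures of a line.

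Over the 385 genes, haploid EpiSC-1 stood above the other lines. For each gene the deviation of a line was its mean log2 signal minus the mean of the 4 line means, and the median of the same quantity over all tested genes was taken off. Before that median is taken off, the 4 deviations of a gene sum to 0. A high line thus pulls the values of the others down, and low values there need not be decreases of their own. The median deviation was 0.16 in haploid EpiSC-1 (SD 0.007 over its 3 arrays), -0.03 in haploid EpiSC-2 (SD 0.010), -0.03 in diploid EpiSC-1 (SD 0.011) and -0.11 in diploid EpiSC-2 (SD 0.007). The deviation was above 0 for 260 of 385 genes in haploid EpiSC-1, for 176 in haploid EpiSC-2, for 178 in diploid EpiSC-1 and for 136 in diploid EpiSC-2. The lower and upper quartiles in haploid EpiSC-1 were -0.07 and 0.45. Since the chromosome was chosen on the difference between the haploid lines, these deviations are described and not tested.

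**Figure D1:**
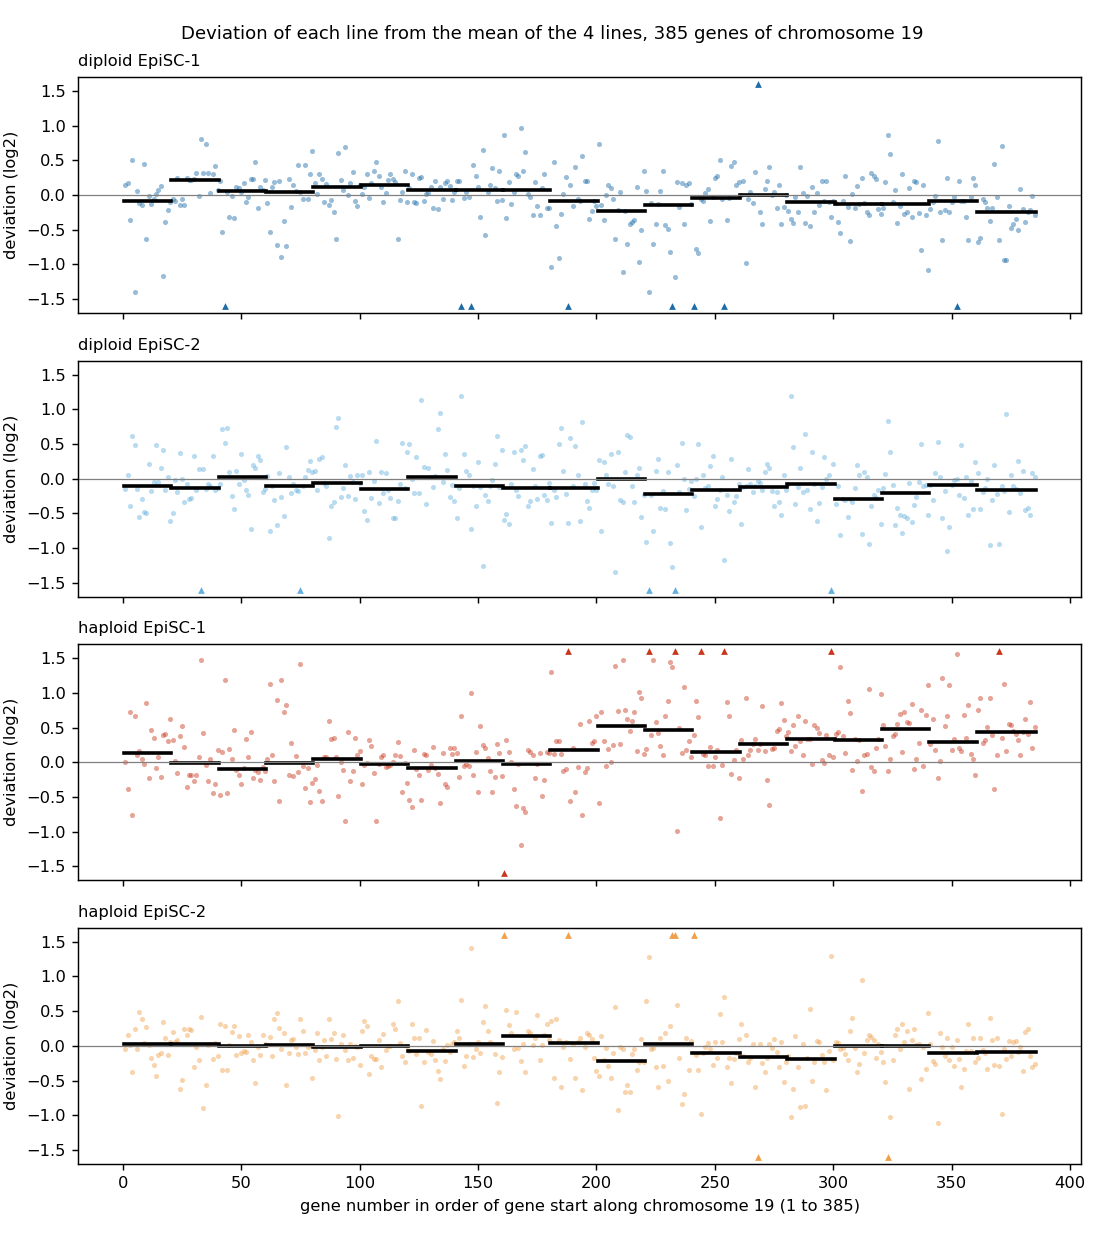
Deviation of each line from the mean of the 4 lines (log2) for the 385 genes in order of gene start, 1 point per gene and 1 panel per line. Horizontal bars are medians of blocks of 20 genes (25 in the last), and triangles at the edges are genes beyond the axis. In haploid EpiSC-1 the bars lie between -0.10 and 0.17 in the first 10 blocks and between 0.15 and 0.52 in the last 9.

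The excess in haploid EpiSC-1 lay in the part of the chromosome away from the centromere. The genes were cut into 19 blocks of 20 consecutive genes, with 25 in the last. The block median of haploid EpiSC-1 ranged from -0.10 to 0.17 in the first 10 blocks and from 0.15 to 0.52 in the last 9. It was the highest of the 4 lines in 9 of the last 9 blocks and in 2 of the first 10. After these values were seen, the chromosome was divided behind the tenth block, into the first 200 genes (Ighmbp2 to Kank1) and the last 185 (Dmrt1 to Csf2ra).

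In the last 185 genes the median deviation was 0.34 in haploid EpiSC-1, and its 3 arrays gave 0.37, 0.37 and 0.35. It was -0.09 in haploid EpiSC-2, -0.12 in diploid EpiSC-1 and -0.14 in diploid EpiSC-2, low values that partly mirror the high line. No array of the other lines came near the haploid EpiSC-1 arrays, since those gave -0.16 to -0.07. In the first 200 genes the medians were -0.01, 0.01, 0.06 and -0.08 in the same order. Set against the mean of the other 3 lines, haploid EpiSC-1 was higher by a median of 0.45 on the log2 scale in the last 185 genes (1.36-fold) and differed by -0.01 in the first 200 (0.995-fold). Its deviation was above 0 for 161 of the last 185 genes (87.0%) and for 99 of the first 200 (49.5%). It exceeded the mean of the other lines by more than 1 on the log2 scale, which is 2-fold, in 40 of the last 185 genes and 11 of the first 200, and lay as far below it in 2 and 4 genes. The share of all tested genes beyond 2-fold was not computed, so these counts are a description.

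**Figure D2:**
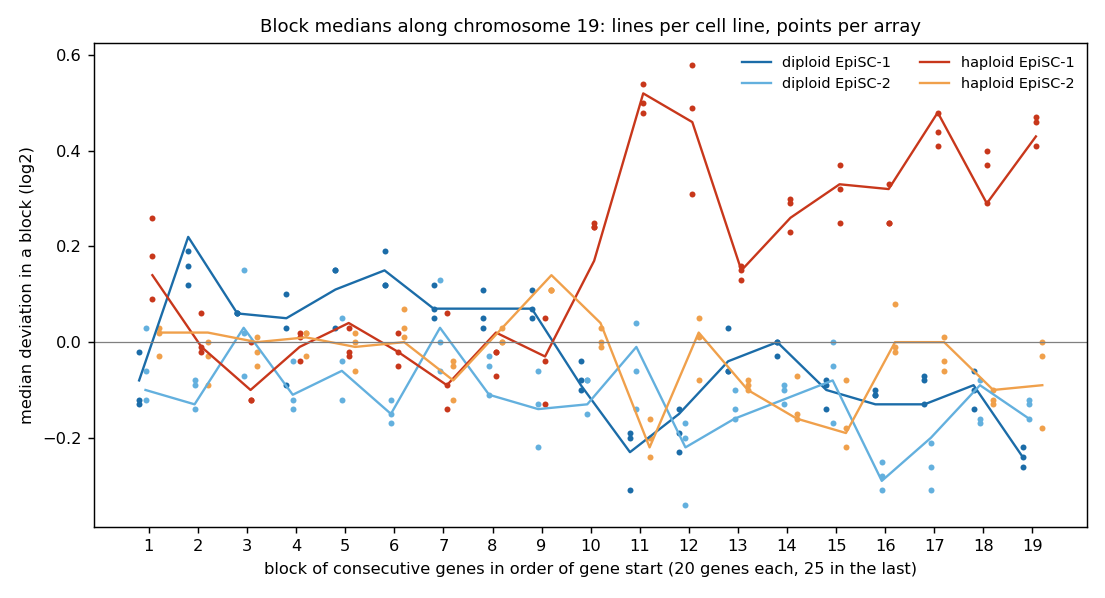
Median deviation (log2) of each block of consecutive genes along chromosome 19. Lines join the medians of the 4 cell lines and points are the 3 arrays of each line. The haploid EpiSC-1 curve separates from the others around block 10 (0.17) and stays the highest to block 19 (0.43), with its peak in block 11 (0.52).

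The highest block in haploid EpiSC-1 was the eleventh, from Dmrt1 to Gldc, at 0.52. The twelfth, from Dkk1 to Rpp30, followed at 0.46, the seventeenth, from Fbxl15 to Sh3pxd2a, gave 0.48 and the last, from Vti1a to Csf2ra, gave 0.43 with 24 of 25 genes above 0. The lowest of the last 9 blocks was the thirteenth, from Ankrd1 to Noc3l, at 0.15. All 3 arrays of the line were above 0 in every one of these 9 blocks, and the largest SD between them was 0.137, in the twelfth. Its lowest block on the whole chromosome was the third, Brms1 to Kat5, at -0.10. Diploid EpiSC-1 had its highest block at the second, Rps6kb2 to B4gat1 (0.22), and its lowest at the last (-0.24). Diploid EpiSC-2 had its lowest at the sixteenth, Hif1an to Nfkb2 (-0.29), and was below 0 in 17 of 19 blocks. Haploid EpiSC-2 was highest in the ninth, Pga5 to Vps13a (0.14), and lowest in the eleventh (-0.22), where haploid EpiSC-1 was highest. Since deviations are taken from the mean of all lines, low blocks of the other lines are partly set by haploid EpiSC-1.

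Runs of 10 genes gave a finer view. In haploid EpiSC-1 the run from Pga5 to Stx3 had a median of -0.51, with 2 of 10 genes above 0. The next runs gave 0.12 (Patl1 to Vps13a), 0.17 (Prune2 to Zfand5), 0.11 (1110059E24Rik to Kank1) and 0.26 (Dmrt1 to Rcl1). From Jak2 to Gldc the median was 0.67 with 10 of 10 genes above 0, and from Dkk1 to Lipo3 it was 0.50, again with 10 of 10. Earlier runs had also been high, with 0.33 from Ndufs8 to Coro1b and 0.41 from Rela to Frmd8, so these medians do not place a boundary. Beyond Gldc every run was above 0, the lowest being 0.11 between Kif11 and Noc3l.

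Haploid EpiSC-1 also stood apart on 2 other chromosomes. Its median deviation was 0.22 over 542 genes of chromosome 6 and -0.38 over 391 genes of chromosome 13, against 0.16 over chromosome 19. On chromosome 6, 26 of 27 blocks were above 0 (-0.05 to 0.53), and on chromosome 13, 20 of 20 were below 0 (-0.57 to -0.02). Of 535 blocks on all other chromosomes, 75 (14%) had a haploid EpiSC-1 median of 0.15 or more, the lowest value of the last 9 blocks of chromosome 19, and 18 of these were on chromosome 6. Chromosomes 6 and 13 were thus offset along nearly their whole length, and chromosome 19 over its last blocks.

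**Figure D3:**
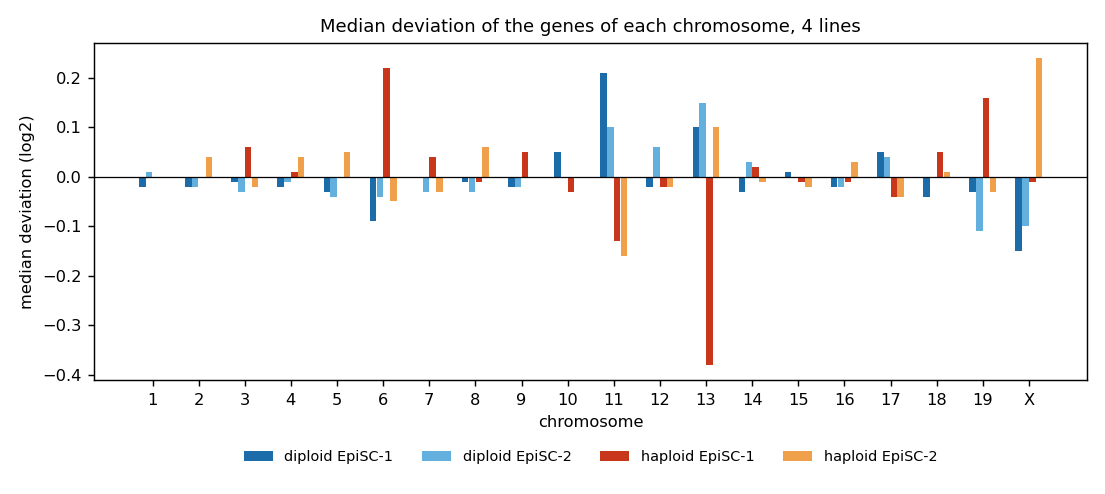
Median deviation (log2) of the tested genes of each chromosome, 1 bar per line, relative to all tested genes. For haploid EpiSC-1 the bars of chromosomes 6 (0.22), 13 (-0.38) and 19 (0.16) stand out, and for haploid EpiSC-2 that of the X chromosome (0.24). Offsets of similar size occur elsewhere. Chromosome 11 is at 0.21 and 0.10 in diploid EpiSC-1 and EpiSC-2, and at -0.13 and -0.16 in haploid EpiSC-1 and EpiSC-2. On the X chromosome the diploid lines are at -0.15 and -0.10.

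In haploid EpiSC-1 the deviation also moved with the signal of a gene. On the other chromosomes genes were put in 4 equal classes of mean signal, and its median fell from 0.14 in the lowest class to 0.07, -0.03 and -0.11 in the highest. In the last 185 genes the classes gave 0.54, 0.39, 0.35 and 0.20, and in the first 200 they gave 0.14, 0.10, 0.05 and -0.17. The last genes were thus 0.31 to 0.40 above the other chromosomes within each class of signal, while the median mean log2 signal was 9.30 in the last 185, 9.38 in the first 200 and 9.39 elsewhere. Genes of the last stretch were longer, with a median of 32190 bases against 11199 in the first. By 4 classes of gene length their medians were 0.24, 0.33, 0.33 and 0.56 from short to long, against -0.07, -0.03, 0.01 and 0.08 on the other chromosomes. By classes of promoter G+C content, known for 87.3% of the genes, they were 0.40, 0.23, 0.51 and 0.33. The part of signal level and gene length in the size of the deviation was not tested beyond these classes.

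**Figure D4:**
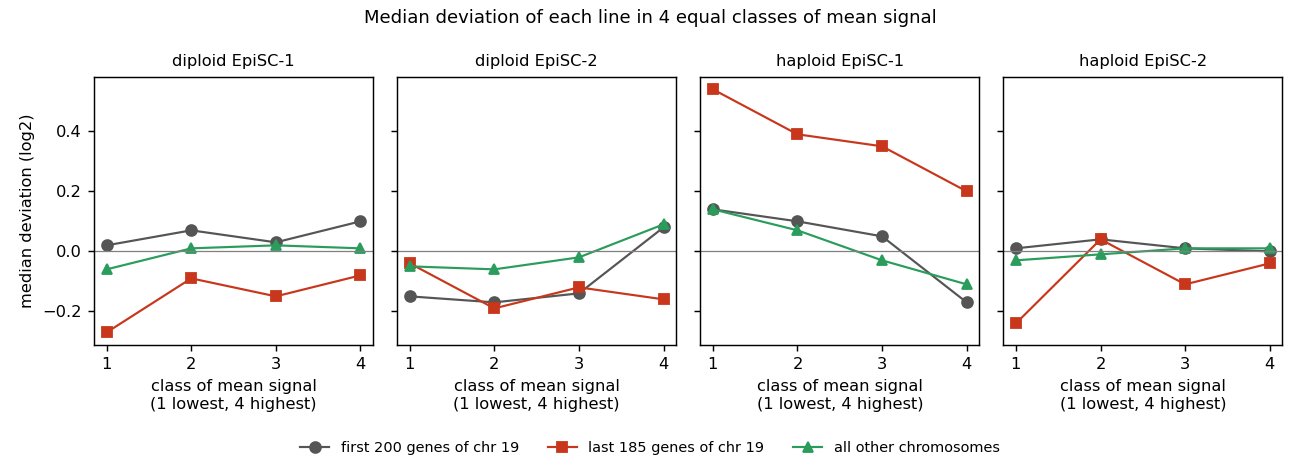
Median deviation (log2) of each line in 4 equal classes of mean signal, from lowest (1) to highest (4), for the first 200 genes, the last 185 genes and all other chromosomes. In haploid EpiSC-1 all 3 curves fall with signal, and that of the last 185 genes runs from 0.54 to 0.20, above those of the other chromosomes (0.14 to -0.11).

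Other probe sets of the same genes gave a second reading. In 79 of the last 185 genes a further probe set with a single symbol passed the filter, and its median deviation in haploid EpiSC-1 was 0.34, with 63 of 79 above 0. The probe sets used for the same genes gave 0.26. In 94 of the first 200 genes the further probe sets gave -0.02 and those in use -0.07.

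Genes for which all 3 haploid EpiSC-1 arrays lay above the other 9 arrays made up 129 of 385 (33.5%), against 19.7% of all tested genes. There were 97 among the last 185 (52.4%) and 32 among the first 200 (16%). Genes with all 3 arrays below the others made up 33 of 385 (8.57%), against 15.4% of all tested genes. Of these, 29 were among the first 200 and 4 among the last 185. In diploid EpiSC-2 the arrays lay below all others for 79 genes (20.5%), against 11.9% of all tested genes, with 34 in the first stretch and 45 in the last, and above all others for 30 (7.79%, against 11.7%). Diploid EpiSC-1 was above all others for 45 genes (11.7%, against 14.3%) and below for 32 (8.31%, against 13.3%). Haploid EpiSC-2 was above for 16 (4.16%, against 7.44%) and below for 43 (11.2%, against 9.12%), 31 of them in the last stretch. Both haploid lines enter the difference on which the chromosome was chosen, and the stretches were divided after their values were seen. The counts of the haploid lines are therefore a description, and their distance from the shares of all tested genes is not read as a result.

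Signalling and growth-control genes of the last stretch are given first, and they were named for their wide range, so they lie well beyond the median offset of 0.45. Jak2, the tyrosine kinase that links cytokine receptors to STAT factors (Entrez 16452), had signals of 303, 261 and 246 in diploid EpiSC-1, 455, 450 and 437 in diploid EpiSC-2, 1601, 1627 and 1642 in haploid EpiSC-1 and 517, 544 and 621 in haploid EpiSC-2. The haploid EpiSC-1 arrays were far above the others, and the other lines followed in separate, non-overlapping groups. Gfra1, a co-receptor for glial cell line-derived neurotrophic factor (Entrez 14585), gave 75.7, 68.5 and 61.1, then 71.4, 49.5 and 46.1, then 378, 468 and 352 in haploid EpiSC-1, and 87.5, 80.5 and 94.7 in haploid EpiSC-2. The other 3 lines were near or under the filter for this gene. Dusp5, a phosphatase of nuclear ERK (Entrez 240672), gave 126, 112 and 98.2 in diploid EpiSC-1, 325, 358 and 362 in diploid EpiSC-2, 1032, 1039 and 1097 in haploid EpiSC-1 and 427, 439 and 278 in haploid EpiSC-2. Here diploid EpiSC-2 and haploid EpiSC-2 overlapped and haploid EpiSC-1 was alone at the top. Against the mean of the other 3 lines, haploid EpiSC-1 was higher by 2.0 for Jak2, 2.53 for Gfra1 and 2.12 for Dusp5 on the log2 scale.

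Uhrf2, Pcgf5 and Cep55, single genes of chromatin and cell division in the same stretch, were also high in haploid EpiSC-1. Uhrf2, a RING-finger ubiquitin ligase related to the DNA methylation factor Uhrf1 (Entrez 109113), had signals of 754, 824 and 719, then 637, 839 and 698 in the diploid lines, 1935, 2152 and 2151 in haploid EpiSC-1 and 1194, 1142 and 1119 in haploid EpiSC-2. The diploid lines overlapped, haploid EpiSC-2 lay above them and haploid EpiSC-1 above all. A further Uhrf2 probe set also had haploid EpiSC-1 highest, with a deviation of 0.56 against 0.93. There haploid EpiSC-2 (-0.07) lay below diploid EpiSC-2 (0.24). Pcgf5, a subunit of Polycomb repressive complex 1 (Entrez 76073), gave 827, 744 and 800 in diploid EpiSC-1, 1358, 1255 and 1346 in diploid EpiSC-2, 2719, 2355 and 2606 in haploid EpiSC-1 and 1218, 1281 and 1202 in haploid EpiSC-2. Cep55, a midbody protein needed for the last step of cytokinesis (Entrez 74107), gave 2388, 2632 and 2481, then 2604, 2816 and 2640.1, then 5845, 6108 and 5889 in haploid EpiSC-1, and 2662, 2579 and 2521 in haploid EpiSC-2. For Cep55 the other 3 lines overlapped, and haploid EpiSC-1 was higher by 1.2. The difference was 1.27 for Uhrf2 and 1.23 for Pcgf5. Some other genes of chromatin and cell division in the last stretch, picked after their values were seen, differed less. The difference was 0.28 for the mitotic kinesin gene Kif11, 0.31 for the cohesin gene Smc3 and 0.09 for the chromatin remodeller Hells. None of these had its haploid EpiSC-1 arrays above all others. Over the lists of chromatin and of replication, repair and mitosis genes, which span the whole chromosome, the median deviation of haploid EpiSC-1 was 0.08 and 0.07.

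Metabolic genes were among those with the largest offsets. Ak3, the adenylate kinase of the mitochondrial matrix (Entrez 56248), gave 599, 631 and 644 in diploid EpiSC-1, 329, 385 and 414 in diploid EpiSC-2, 2593, 2455 and 2635 in haploid EpiSC-1 and 1422, 1434 and 1397 in haploid EpiSC-2. All 4 lines were separate, with both haploid lines above both diploid ones. Asah2, which encodes neutral ceramidase (Entrez 54447), gave 73.0, 72.6 and 70.3, then 70.4, 73.9 and 59.3, then 330, 248 and 436 in haploid EpiSC-1, and 120, 116 and 105 in haploid EpiSC-2. Ppp1r3c, which targets protein phosphatase 1 to glycogen (Entrez 53412), gave 121, 102 and 101, then 66.5, 67.2 and 68.1, then 392, 352 and 363 in haploid EpiSC-1, and 56.4, 75 and 42.2 in haploid EpiSC-2. For these genes haploid EpiSC-1 was higher than the mean of the others by 1.89, 2.01 and 2.31.

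Exceptions in the last stretch were few. All 3 haploid EpiSC-1 arrays lay below the other 9 for Lipa, Hhex, Rrp12 and Trub1. Lipa, the lysosomal acid lipase (Entrez 16889), had signals of 476, 469 and 466, then 457, 435 and 493 in the diploid lines, 228, 190 and 218 in haploid EpiSC-1 and 648, 631 and 571 in haploid EpiSC-2. The haploid lines thus lay on opposite sides of the diploid ones. Hhex, a homeobox gene of anterior endoderm (Entrez 15242), gave 608, 605 and 717, then 419, 356 and 413, then 284, 226 and 287 in haploid EpiSC-1, and 624, 689 and 553 in haploid EpiSC-2. Diploid EpiSC-1 and haploid EpiSC-2 overlapped at the top. Rrp12, a factor of ribosome biogenesis (Entrez 107094), gave 1153, 1202 and 1065, then 903, 954 and 939, then 517, 586 and 607 in haploid EpiSC-1, and 813, 903 and 867 in haploid EpiSC-2. Trub1, a pseudouridine synthase (Entrez 72133), gave 1024 to 1043 in haploid EpiSC-1 against 1061 to 1131 in haploid EpiSC-2, a narrow gap. Fgf8, a growth factor of the primitive streak (Entrez 14179), gave 1019.9, 968 and 1009 in diploid EpiSC-1, 490, 469 and 466 in diploid EpiSC-2, 620, 643 and 671 in haploid EpiSC-1 and 1623, 1611 and 1635 in haploid EpiSC-2, so the EpiSC-1 line was the higher diploid and the lower haploid one.

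In the first 200 genes single genes departed without a common direction. Pga5, a pepsinogen (Entrez 58803), gave 511, 525 and 559 in diploid EpiSC-1, 156, 198 and 213 in diploid EpiSC-2, 64.9, 47.0 and 58.8 in haploid EpiSC-1 and 1209, 1139.8 and 1336 in haploid EpiSC-2. It was near the filter in haploid EpiSC-1 and highest in haploid EpiSC-2. Ahnak, a very large scaffold protein of the cell cortex (Entrez 66395), gave 241, 343 and 247 in diploid EpiSC-1, 3279, 3572 and 3676 in diploid EpiSC-2, 2478, 2536 and 2533 in haploid EpiSC-1 and 2508, 2459.9 and 2436 in haploid EpiSC-2, so diploid EpiSC-1 alone was low. Ctsf, the lysosomal protease cathepsin F (Entrez 56464), gave 138, 119 and 117, then 14.8, 7.36 and 10.7 in diploid EpiSC-2, then 212, 169 and 218, and 96.6, 73.2 and 117 in haploid EpiSC-2. Its diploid EpiSC-2 signals were under the filter, so the size of that gap is uncertain. Neat1, the RNA scaffold of paraspeckles (Entrez 66961), gave 136, 134 and 162, then 327, 308 and 337, then 419, 448 and 424 in haploid EpiSC-1, and 188, 164 and 139 in haploid EpiSC-2. A further Neat1 probe set did not show this order, with a haploid EpiSC-1 deviation of 0.01 against 0.82 and a difference between the diploid lines of -0.39 against 1.17.

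The comparison of ploidies asks which genes differ between both haploid and both diploid lines. It shares the haploid EpiSC-1 arrays with the pattern above. With the line as a random block, 56 of 385 genes passed an adjusted p of 0.05 in limma, 37 higher in the haploid lines (9.61%) and 19 lower (4.94%). Over all tested genes 17.2% passed, 9.69% higher and 7.54% lower, so the share of higher calls was near the background and that of lower calls under it. The first 200 genes had 9 higher and 15 lower calls, and the last 185 had 28 and 4. The median log2 difference was -0.02 in the first 200, 0.27 in the last 185 and 0.00 over all tested genes. Without haploid EpiSC-1 the medians were 0.02 and 0.06, and 17 genes were higher and 19 lower. Over all tested genes 6.46% were then higher and 6.26% lower. Of the 37 higher calls 14 were also made without that line, and of the 19 lower calls 13. With line means as the units, 4 genes were higher and 1 lower, where all tested genes gave 2.02% higher and 0.910% lower. With 2 lines of each ploidy the adjusted p below are uncertain. When arrays were centred on their medians, which moved the median of all tested genes by -0.12, the calls split into 25 higher and 22 lower (53.2% higher, against 66.1%). Of the calls over all tested genes 42.8% were then higher, against 56.2% before.

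Among the genes that passed and whose arrays did not overlap between ploidies, Anxa1, Ch25h, Acta2, Scd1, Prkg1, Myof, Ankrd1, Ak3, Stambpl1 and Prune2 had the highest differences. Anxa1, the phospholipid-binding annexin A1 (Entrez 16952), had signals of 206, 245 and 240 in diploid EpiSC-1, 1452, 1739.7 and 1398 in diploid EpiSC-2, 10094, 10819.6 and 10733 in haploid EpiSC-1 and 9067, 9295 and 8831 in haploid EpiSC-2. It rose by 4.05 ± 0.52 (log2, SE, n = 6 arrays a ploidy from 2 lines, adjusted p = 6.79e-05 in limma). Acta2, smooth muscle actin and one of the feeder markers (Entrez 11475), gave 509, 513 and 514, then 1113, 1114 and 1071, then 7160.2, 7278 and 6863, and 13132, 12935 and 12825 in haploid EpiSC-2, and rose by 3.68 ± 0.27 (adjusted p = 3.26e-07). Prkg1, the cGMP-dependent protein kinase (Entrez 19091), gave 45.6, 40.6 and 48.0, then 35.1, 41.8 and 36.4, then 412, 360 and 402, and 280, 312 and 263, and rose by 3.02 ± 0.40 (adjusted p = 7.88e-05). Both diploid lines were under the filter for Prkg1, so its fold is uncertain in size. Myof, a membrane-repair protein of muscle (Entrez 226101), gave 63.1, 78.3 and 79.3, then 134, 73.2 and 102, then 1082, 996 and 930, and 359, 401 and 354, and rose by 2.83 ± 0.51 (adjusted p = 0.00124). Ankrd1, an ankyrin-repeat protein of striated muscle, rose by 2.29 (adjusted p = 0.0100) and was highest in haploid EpiSC-2, at 504, 589 and 599. The feeder marker sums given above, which include Acta2 itself, were also higher in both haploid lines. Vim was not above diploid EpiSC-2 (19074 and 17085 against 19178), and Thy1 lay below diploid EpiSC-1 (132 and 118 against 203). The other feeder markers were higher in both haploid lines than in both diploid lines. The part of these markers in the differences was not tested.

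Lipid and sterol genes changed in both directions. Scd1, which desaturates stearoyl-CoA (Entrez 20249), gave 2035, 2086 and 2074 in diploid EpiSC-1, 367, 379 and 333 in diploid EpiSC-2, 9251, 8947 and 9063 in haploid EpiSC-1 and 6179, 6053 and 6392 in haploid EpiSC-2. It rose by 3.12 ± 0.47 (adjusted p = 0.000283), while the diploid lines differed among themselves by more than the haploid ones. Ch25h, cholesterol 25-hydroxylase (Entrez 12642), gave 39.2, 42.9 and 38.9, then 35.8, 14.8 and 4.41, then 473, 343 and 370, and 290, 329 and 344. It rose by 3.94 ± 1.24 (adjusted p = 0.0387), from signals under the filter, and missed the threshold without haploid EpiSC-1 (log2 3.79, adjusted p = 0.0987). Bscl2, the lipid-droplet protein seipin, fell by 1.04 (adjusted p = 0.00276), from 3692 to 6980.3 in the diploid lines to 2292 to 2772 in the haploid ones. Tm7sf2, a sterol reductase of cholesterol synthesis, fell by 0.72 (adjusted p = 0.0285).

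Ak3 rose by 1.98 ± 0.27 (adjusted p = 0.000134) and remained called without haploid EpiSC-1 (log2 1.55, adjusted p = 0.00311). Stambpl1, a deubiquitinase gene, and Prune2 rose by 1.77 and 1.69 (adjusted p = 0.0163 and 0.0261). Without haploid EpiSC-1 they differed by 1.18 and 1.21 and did not pass (adjusted p = 0.124 and 0.155). Jak2 and Uhrf2 rose by 1.46 ± 0.37 and 1.06 ± 0.27 (adjusted p = 0.0125 and 0.0121), and without that line the differences were 0.69 and 0.63 (adjusted p = 0.176 and 0.102). Uhrf2 also missed the threshold with the mean of all probe sets of a gene. Ldb1, a cofactor of LIM-domain transcription factors, and Dusp5 went from 1.24 to 0.76 and from 1.67 to 0.92 (adjusted p = 0.0391 to 0.255 and 0.0410 to 0.346). Their calls were close to the threshold: Ldb1 passed in 14 of 26 alternatives and Dusp5 in 10 of 25, and both missed it with the replicate number as a block (adjusted p = 0.0616 and 0.0570) and without some single arrays. Ch25h passed in 16 of 25. Jak2 also missed the threshold without diploid EpiSC-1 (log2 1.09, adjusted p = 0.0901), and so did Ankrd1 (1.42, adjusted p = 0.0620), which missed it without haploid EpiSC-2 as well (1.58, adjusted p = 0.0922).

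Klf9, a Krüppel-like transcription factor (Entrez 16601), was among the genes that fell. Its signals were 4326, 4053 and 4807 in diploid EpiSC-1, 5058, 4922 and 5542 in diploid EpiSC-2, 1742, 1727 and 1881 in haploid EpiSC-1 and 1956, 2027 and 1741 in haploid EpiSC-2, a drop of 1.37 (SE 0.19, adjusted p = 0.000110). No haploid array reached a diploid one, and the haploid lines overlapped. Stx3, a syntaxin of apical membrane traffic (Entrez 20908), gave 4195, 4356 and 4285, then 3735, 3850.4 and 3730.1, then 1618, 1679 and 1844, and 2149, 2153 and 2072, and fell by 1.08 (adjusted p = 0.000103). Cdc42bpg, a kinase bound by Cdc42 (Entrez 240505), fell by 1.46, from 1119.7 to 1667 in the diploid lines to 337 to 619 in the haploid ones (adjusted p = 0.00634). Tmem223 fell by 1.39 (adjusted p = 0.00155), 1110059E24Rik by 0.87 (adjusted p = 0.00833) and Yif1a, a protein of transport between endoplasmic reticulum and Golgi, by 0.76 (adjusted p = 0.0116). Ms4a4d, a membrane protein of the Ms4a cluster, fell by 1.38 (adjusted p = 0.0156) but did not pass without haploid EpiSC-1 (log2 -0.91, adjusted p = 0.0893) or without diploid EpiSC-1 (log2 -1.09, adjusted p = 0.0829). Of the 10 such genes with the lowest differences, Mfsd13a alone lies in the last stretch, and it fell by 0.96 (adjusted p = 0.0234), with the lowest signals in haploid EpiSC-2, at 659, 534 and 567. Mfsd13a and Tm7sf2 missed the threshold without haploid EpiSC-2 (log2 -0.41 and -0.63, adjusted p = 0.0892 and 0.0602) and without diploid EpiSC-1 (log2 -0.84 and -0.43, adjusted p = 0.103 and 0.189), and Yif1a without diploid EpiSC-2 (log2 -0.43, adjusted p = 0.0973).

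**Figure D5:**
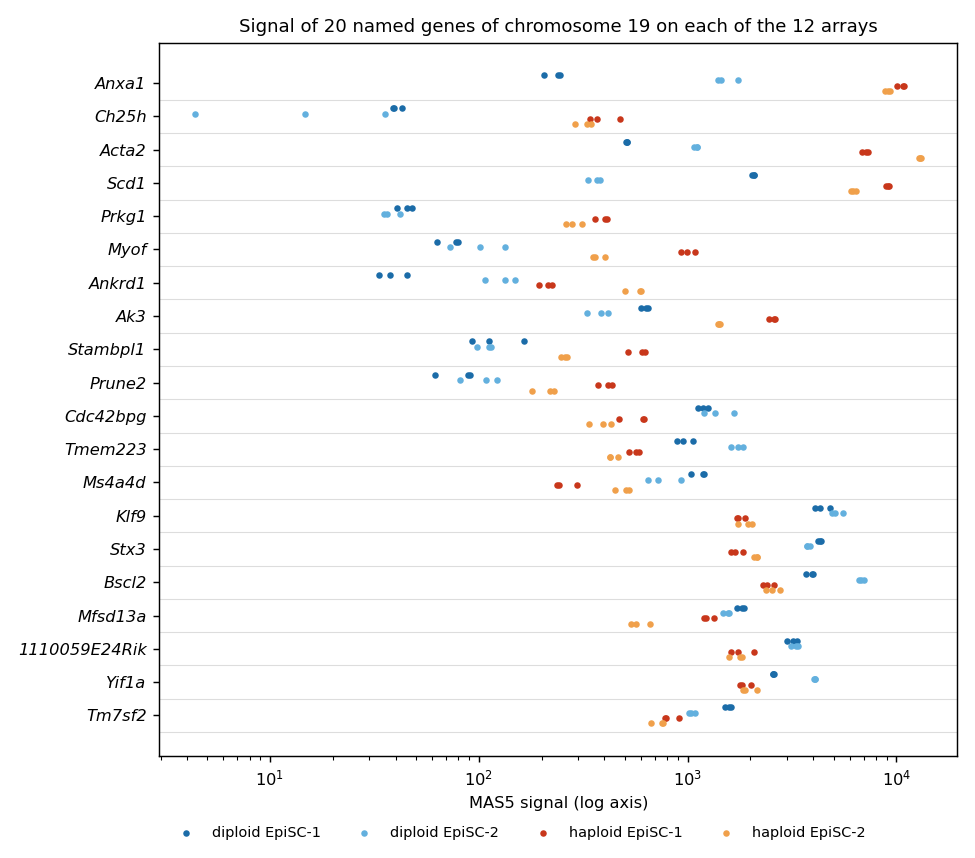
Signal on each of the 12 arrays (log axis) for the 10 genes of chromosome 19 with the highest and the 10 with the lowest difference between ploidies, among those that passed in limma and whose arrays of the 2 ploidies do not overlap. Colours mark the 4 lines. Anxa1 runs from 206 to 10819.6 and Klf9 from 1727 to 5542.

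Lists of genes by role, drawn up with earlier results of these arrays known, were counted in the same comparison. Among 18 measured Wnt, Fgf and patterning genes 2 were higher (Ldb1 and the Wnt effector Tcf7l2, 1.07) and 1 lower (Klf9), with a median log2 difference of 0.19. Tcf7l2 gave 0.64 without haploid EpiSC-1 (adjusted p = 0.0767). Of 16 chromatin and Polycomb genes 3 were higher (Uhrf2, Ldb1 and the remodeller subunit Smarca2, 0.89) and 0 lower, with a median of 0.07. Of 18 genes of PI3K and NF-kB signalling, stress and cell death 4 were higher (Anxa1, Jak2, Dusp5 and the Max partner Mxi1, 0.94) and 0 lower, with a median of 0.48. Without haploid EpiSC-1, Smarca2 gave 0.59 and Mxi1 0.27 (adjusted p = 0.219 and 0.483). Of 22 genes of adhesion, cytoskeleton and traffic 5 were higher (Myof, Pdlim1, Ablim1, Sh3pxd2a and Arl3) and 1 lower (Stx3), with a median of 0.40. The share of higher calls over all tested genes was 9.69%, and with lists of this size the counts are a description. A further Pdlim1 probe set gave -0.79, opposite to the 1.11 of the one used, so the direction of Pdlim1 is uncertain. Pdlim1 and Arl3 did not pass without haploid EpiSC-1 (adjusted p = 0.166 and 0.319).

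Among 24 mitochondrial genes 2 were higher (Ak3 and the peroxiredoxin Prdx3, 0.68) and 2 lower (the ribosomal protein genes Mrpl11 and Mrpl16), with a median of -0.09. Neither Mrpl gene passed without haploid EpiSC-1 (adjusted p = 0.0774 and 0.152). Among 23 genes of DNA replication, repair and mitosis 1 was higher (Uhrf2) and 1 lower (the sororin gene Cdca5, -0.58), with a median of -0.05. Of 31 genes of RNA processing and ribosome biogenesis 0 were higher and 1 lower (Snhg1), with a median of -0.03, and Snhg1 did not pass without haploid EpiSC-1 (adjusted p = 0.129). Of 20 lipid genes 1 was higher (Scd1) and 2 lower (Bscl2 and Tm7sf2), with a median of 0.17. Of 8 interferon and immune genes 1 was higher (Tcirg1, 1.15) and 0 lower, with a median of 0.34, and Tcirg1 did not pass without haploid EpiSC-1 (adjusted p = 0.0724).

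The lists also differed in the deviation of haploid EpiSC-1 itself. Its median was 0.54 over the adhesion, cytoskeleton and traffic genes, 15 of 22 of which lie in the last stretch. It was 0.49 over the interferon and immune genes, 6 of 8 of which lie there, and 0.36 over the PI3K, NF-kB and stress genes, with 7 of 18 there. It was -0.07 over the RNA processing and ribosome biogenesis genes, although 14 of 31 of these lie in the last stretch. Over the Wnt, Fgf and patterning genes it was only 0.16, with 15 of 18 in the last stretch. The lipid genes gave 0.17 with 12 of 20 there, and the mitochondrial genes 0.11 with 13 of 24. The order of these medians was thus not that of the shares in the last stretch. The lists are small and were drawn up with earlier results known, so this is a description and was not tested.

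Between the diploid lines 219 of 385 genes passed (56.9%), 78 higher in diploid EpiSC-2 (20.3%) and 141 lower (36.6%). Over all tested genes 55.8% passed, 26.4% higher and 29.4% lower, so the overall share was near the background, with fewer higher and more lower calls. The median log2 difference was -0.10 on chromosome 19 and -0.01 over all tested genes. It was -0.13 in the first 200 genes and -0.09 in the last 185, without the step seen in haploid EpiSC-1. Ahnak rose most, by 3.68 ± 0.10 (log2, SE, n = 3 arrays a line, adjusted p = 5.01e-13 in limma). Anxa1 rose by 2.73 (adjusted p = 8.83e-13). Cd248, a surface protein of stromal cells, rose by 2.48 (adjusted p = 8.93e-06), from 27.9, 34.7 and 13.2 to 142, 101 and 155. Shtn1, a protein of axon outgrowth, and the neuropeptide gene Gal rose by 1.84 and 1.85 from signals mostly under the filter (adjusted p = 1.43e-05 and 0.0170), and Ankrd1 rose by 1.74 (adjusted p = 6.03e-07). The feeder marker sum was also higher in diploid EpiSC-2, as given above, mostly through Vim, with a mean signal of 19178 against 5280.4, while Thy1 (109 against 203), Pdgfra (70.0 against 82.5) and Dcn (22.1 against 57.6) were lower there. The part of these markers was not tested.

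Lower in diploid EpiSC-2 were Ctsf, which fell by 3.56 (adjusted p = 8.16e-08), and Scd1, which fell by 2.52 (adjusted p = 1.64e-14). Blnk, an adaptor of B-cell receptor signalling (Entrez 17060), fell by 2.11 (adjusted p = 4.56e-07), from 608, 568 and 525 to 124, 136 and 133. Myrf, a membrane-bound transcription factor of myelin genes, fell by 1.94 (adjusted p = 1.77e-06), from 1004, 897 and 1154 to 328, 319 and 176. Capn1, the protease calpain 1, fell by 1.94 (adjusted p = 3.56e-05), from 96.5, 72.1 and 87.3 to signals under the filter. Ch25h fell by 1.6 (adjusted p = 0.0140), where its signals in both diploid lines were under the filter. By list, 1 of 16 chromatin genes was higher and 11 lower, 5 of 31 RNA processing genes were higher and 19 lower, and 2 of 23 DNA replication genes were higher and 11 lower. Among adhesion, cytoskeleton and traffic genes the calls were 9 higher and 7 lower of 22. The other lists gave 2 higher and 8 lower of 18 Wnt, Fgf and patterning genes, 3 and 11 of 24 mitochondrial genes, 5 and 9 of 20 lipid genes, 5 and 6 of 18 PI3K, NF-kB and stress genes, and 2 and 1 of 8 interferon and immune genes. These counts stand beside 26.4% higher and 29.4% lower over all tested genes.

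The difference between the haploid lines is the one that drew attention to the chromosome, and its counts are given as a description. At the same limma threshold 56 genes were higher in haploid EpiSC-2 and 194 lower, 250 in all (64.9%), where all tested genes gave 25.7% higher, 31.0% lower and 56.6% in all. The first 200 genes held 47 of the higher and 55 of the lower, and the last 185 held 9 and 139. Since the chromosome was chosen on this difference, nothing is read from these counts. The median log2 difference was -0.01 in the first 200 genes, -0.50 in the last 185 and -0.05 over all tested genes. Centring the arrays on their medians moved the median of all tested genes by 0.16 and gave 96 higher and 139 lower (40.9% higher, against 22.4%). Of the calls over all tested genes 65.5% were then higher, against 45.3% before.

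Haploid EpiSC-2 was higher than haploid EpiSC-1 by 4.44 for Pga5, 1.54 for Lipa, 1.42 for Ankrd1, 1.33 for Fgf8 and 1.23 for Hhex. Ccdc86 and Wdr74, which encode proteins of the nucleolus, followed with 1.09 and 0.93, with signals of 1197, 1213 and 1171 against 666, 505 and 525 for Ccdc86. Ms4a4d was higher by 0.94. In the other direction the difference was -2.71 for Ppp1r3c, -2.41 for Blnk, -2.18 for Gfra1, -1.54 for Jak2 and -1.54 for Asah2. Blnk gave 164, 126 and 187 in haploid EpiSC-1 and 24.7, 26.5 and 39.4 in haploid EpiSC-2, the latter under the filter. Ifit1, an interferon-induced gene, differed by -1.81, with 189, 193 and 184 against 40.7, 65.7 and 57.8, and Il33, an alarmin cytokine gene, gave 512, 487 and 382 against 227, 176 and 166. The median over the 8 measured interferon and immune genes, 6 of which lie in the last stretch, was -1.08. Gm9895 and 2310034G01Rik, which have no named function here, differed by -1.69 and -1.52 with signals near or under the filter.

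At the filter itself, Slc25a45 (mean log2 signal 5.97), Ms4a6c (6.015) and Cfap43 (6.015) were the genes just inside. Flrt1 (5.959), Slit1 (5.945) and the Wnt co-receptor gene Lrp5 (5.917) were the genes just outside and were not used.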

How the data were processed

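Expression was measured on 12 Affymetrix arrays, 3 per line. The authors deposited linear signal intensities from MAS5, which the submitters' processing notes name, while its version and settings are not given in the sources used here. Their table held 45101 probe sets, of which 64 controls were dropped. Of the others 34945 had 1 gene symbol, 932 several and 9160 none, and 34741 of the first kind matched the reference table. Signals were taken as log2 without a pseudocount or further normalization. The trimmed mean of each array, without 2% at each end, was 500.0. The ploidy fit used limma 3.58.1 (R 4.3.3), all 12 arrays and line as a random block (duplicateCorrelation, statmod 1.5.0, correlation 0.806). Lines were compared in a fit of 4 group means. Both fits used eBayes with an intensity trend and Benjamini-Hochberg adjustment over 11105 genes, two-sided. The fits were tested on simulated data. The genes, lists and rules were chosen with earlier results of these data known. Genes were named by rank among those whose arrays did not overlap: of genes that passed in limma, the 10 highest and 10 lowest differences between ploidies and 6 and 6 between diploid lines, then 8 and 8 between haploid lines, up to 5 per line that lay apart from the other 9 arrays, and up to 3 per list with the widest range of line means. The counts of 5 or fewer in a list were named after their values were seen, as were Kif11, Smc3, Hells, Tcf7l2, Mxi1 and Trub1. Cyp26a1 and collagen genes were left out. Alternatives covered scaling, pseudocount, filter, probe set, replicate, line, replicate block, unit of replication and block size. The number of arrays limits the precision. No detection calls or scan dates entered, and folds against signals near or under the filter are uncertain in size.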

Additional observations from a re-analysis of the deposited data

Results flagged for a closer look

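In 4 genes of chromosome 19 every array of one haploid line lay above all diploid arrays and every array of the other lay below them. The share of all tested genes with this pattern was not computed, so the count is a description and is not read as particular to the chromosome. The log2 difference of haploid EpiSC-2 from haploid EpiSC-1 was 4.44 for Pga5 and 1.54 for Lipa, where haploid EpiSC-2 was the higher line. It was -1.69 for Gm9895 and -1.16 for Hoga1, a mitochondrial aldolase gene, where haploid EpiSC-1 was the higher line. Hoga1 signals were 142, 131 and 162 in haploid EpiSC-1. They were 64.4, 69.2 and 60.1 in haploid EpiSC-2, against 74.3 to 109 in the diploid lines. The differences from the diploid lines in opposite directions were not tested. Lipa, Gm9895 and Hoga1 lie in the last 185 genes and Pga5 in the first 200.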

How the results depend on the processing

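Of 309 alternative values computed, 250 stayed within the spread between arrays or within 1.5 times the count, and 59 moved. A median could also be labelled reversed, which applied to 0 of them, while a count of calls could only stay or move. Without haploid EpiSC-1 the calls between ploidies, 37 higher and 19 lower, became 17 and 19. Most shifts of a median were of 0.01 to 0.03, beyond array SDs of 0.007 to 0.011. Between ploidies, 37 higher and 19 lower calls became 74 and 31 without a filter on low signals, 114 and 59 with arrays as units, 4 and 1 with line means as units, and 75 and 30 without haploid EpiSC-2. The higher calls were 17 with the stricter filter (log2 8.72), 23 with the mean of all probe sets and 17 without haploid EpiSC-1. Calls over all tested genes, 9.69% higher and 7.54% lower in the main fit, became 25.4% and 24.2% with arrays as units. They were 2.02% and 0.910% with line means, and 6.46% and 6.26% without haploid EpiSC-1. Where no such share is given for a setting, here or below, the counts are a description. The median of 0.12 became 0.09 with the mean of all probe sets, 0.19 without diploid EpiSC-1, 0.09 without diploid EpiSC-2, 0.04 without haploid EpiSC-1 and 0.21 without haploid EpiSC-2. Of 24 named genes called there, Acta2, Klf9 and Prkg1 (3) kept the call in every alternative and 21 lost it in at least 1, and of 38 called between the diploid lines 29 kept it and 9 lost it in at least 1.

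Between the diploid lines, 78 higher calls became 47 with the mean of all probe sets, and the median of -0.09 became -0.11 with quantile normalization, -0.10 without a filter, -0.14 with the stricter filter and -0.10 with the mean of all probe sets. Between the haploid lines, 56 higher became 96 with centred arrays, 194 lower became 120 with the stricter filter, and the median of -0.20 became -0.22 with quantile normalization and -0.18 without a filter. With centred arrays the share of all tested genes called higher also went from 25.7% to 37.7%. The deviation of haploid EpiSC-1 (0.16) was 0.15 with quantile normalization, 0.15 with log2(signal + 16), 0.14 without a filter and 0.14 with the mean of all probe sets. That of diploid EpiSC-2 (-0.11) was -0.10, -0.13, -0.13 and -0.08 with quantile normalization, no filter, the stricter filter and the mean of all probe sets. That of haploid EpiSC-2 (-0.03) was -0.01 without a filter, -0.01 with the stricter filter and -0.05 with the mean of all probe sets, and that of diploid EpiSC-1 (-0.03) was -0.02 with the stricter filter. The difference between the last and the first block in haploid EpiSC-1 (0.30) was 0.36 with the stricter filter, 0.14 with the mean of all probe sets, 0.43 with blocks of 10 and 0.38 with blocks of 40. The difference between the last 185 and the first 200 genes (0.34), a division chosen after seeing the data, was 0.28 without a filter. The causes were not tested, other than that fewer or more genes or lines entered.

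Leaving out 1 array at a time, calls between ploidies ranged from 28 to 38 higher and 15 to 19 lower (median 0.12 to 0.13), between diploid lines from 62 to 76 and 121 to 142 (median -0.11 to -0.08), and between haploid lines from 48 to 58 and 177 to 197 (median -0.22 to -0.19). The deviation of diploid EpiSC-1 ranged from -0.03 to -0.02, that of diploid EpiSC-2 from -0.12 to -0.10, that of haploid EpiSC-1 from 0.16 to 0.16 and that of haploid EpiSC-2 from -0.03 to -0.01. The block difference ranged from 0.27 to 0.31, and the difference between the last and first stretch from 0.34 to 0.37.

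Replicate numbers did not pair the arrays: deviations of same-numbered arrays of different lines correlated at -0.047 to 0.077 over 18 pairs, and 6 of 12 arrays correlated best with an array of their own number. With the replicate number as a block, calls were 31 higher and 16 lower between ploidies (median 0.12), 74 and 137 between diploid lines (median -0.09) and 59 and 196 between haploid lines (median -0.20). Signal near the filter limits folds of low genes, and 2 lines of each ploidy limit every statement on ploidy.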
